A study of Homo sapiens with 20 samples.

Results

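The comparison set RNA recovered with an antibody to IGF2BP3 against RNA recovered with control IgG from the same kind of lysate, in all 20 libraries of the series. Of these, 15 were made with the anti-IGF2BP3 antibody and 5 with IgG. Both antibodies were used on HCT116, an established line from a human colorectal carcinoma, in a derivative with the genotype Tet-OsTIR1-PURO. All cells received 4-thiouridine at 100 µM for 15 h. The 5 conditions were PBS for 2 h, arsenite at 250 µM for 2 h, DMSO for 4 h, and tunicamycin (TM) at 5 µg/mL for 1 h (TM 1 h) or 4 h (TM 4 h). Each condition held 3 anti-IGF2BP3 libraries and 1 IgG library. The labels do not say whether replicates came from separate cultures, so p-values measure the spread between these libraries, which may be technical. IgG was never repeated within a condition, and the spread of IgG was taken across conditions.

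IGF2BP3 belongs to a family of RNA-binding proteins with RRM and KH domains that bind messenger RNA in the cytoplasm, often near CA-rich letters, and that are known for stabilising and localising their targets. In PAR-CLIP, 4-thiouridine in RNA is crosslinked to protein by ultraviolet light, and a crosslinked base shows up in the reads as a T-to-C conversion. An IgG library recovers what binds beads, control antibody or tubes, and what is carried along. The most abundant RNAs of a cell, such as transfer RNA, small nuclear RNA and mitochondrial RNA, are well known as background in such experiments.

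The IgG libraries were shallow. They held 5981 to 17503 gene counts, against 130478 to 1568406 in the anti-IGF2BP3 libraries. The authors listed clusters, which are stretches of overlapping reads with T-to-C conversions, called in each library separately. The lists held 440 clusters with 6388 reads over the IgG libraries and 412123 clusters over the anti-IGF2BP3 libraries. Of the 10 colorectal epithelial markers 7 had clusters in the anti-IGF2BP3 libraries, and none of the 14 markers of other cell types had any. The PBS and arsenite IgG cluster lists carry each other's names, and the sample they are attached to was followed.

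The gene count table identifies genes by Ensembl-style identifiers that the files do not pair with symbols, so its genes are described by count and by identifier. The named results come from the clusters, which have positions on hg38 and were named by the RefSeq gene (GRCh38.p14) they lie in. A read in a cluster is counted only where a cluster was called, so the IgG value of a gene is a lower bound. The clusters can show that an RNA was richer in IgG. They cannot show that an RNA was richer in the anti-IGF2BP3 libraries.

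In the clusters, the RNAs that stood out in IgG were transfer RNAs. Shown are 4 clusters of nuclear transfer RNA genes, because these genes led the comparison of cluster reads. The genes that led the gene count table are given further below by identifier, and their RNA class was not determined. Capitals mark the letters of the B box (GTTC, any base, A, any 2 bases, CC), an internal promoter element of these genes that also encodes the T arm.
TRX-CAT1-1: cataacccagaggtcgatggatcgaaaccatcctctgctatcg
TRK-TTT3-2: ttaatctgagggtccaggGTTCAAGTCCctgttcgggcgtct
TRG-CCC2-2: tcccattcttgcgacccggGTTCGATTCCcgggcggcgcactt
TRV-TAC1-1: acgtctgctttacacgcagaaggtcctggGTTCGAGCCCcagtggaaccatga
They lie at chr1:153671282-153671324 (plus strand), chr1:204507027-204507068 (minus), chr16:636733-636775 (minus) and chr11:59550626-59550678 (minus). Each covers the 3' part of the gene. The letters searched were found in 3 of the 4, and TRX-CAT1-1 does not hold them.

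Nuclear transfer RNA, the adaptor of translation, held 2625 of the 6388 IgG cluster reads, or 41.1%, and 0.728% of the anti-IGF2BP3 cluster reads. The IgG libraries of PBS, arsenite, DMSO, TM 1 h and TM 4 h had 64.7%, 36.3%, 44.0%, 14.1% and 26.7%. The anti-IGF2BP3 libraries had 0.424% to 1.17% with a median of 0.840%. All 5 IgG libraries lay above all 15 anti-IGF2BP3 libraries, and the lowest of the IgG libraries was TM 1 h, which is also the shallowest.

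A share of cluster reads depends on how many messenger RNA clusters a library is deep enough to give, so the rate per 1000000 gene counts was also compared. The rate was 60675, 107089, 23906, 8360 and 27898 in the IgG libraries in the same order and 3318 to 7021 in the anti-IGF2BP3 libraries. The means were 45586 ± 39303 (SD, n = 5) and 4949 ± 1147 (SD, n = 15), and the groups did not overlap. Pooled over libraries the IgG rate was 9.52 times the anti-IGF2BP3 rate. The antibody label was permuted within conditions, which gives 1024 arrangements and a smallest p of 0.000977. Library names also carry a set label. In the DMSO and TM conditions the IgG library shared its set with anti-IGF2BP3 replicate 3 only, and replicates 1 and 2 were from a set without IgG. Antibody and set are therefore partly mixed there, and the permutation exchanges labels across sets. The two-sided exact permutation p was 0.000977, and 0.00317 after Benjamini-Hochberg adjustment over 94 comparisons of RNA classes and cluster features. These 94 were chosen after the data were seen, and 56 of them had an adjusted p under 0.05.

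Depth was also addressed by keeping, in each anti-IGF2BP3 library, only as many of its most-read clusters as the IgG library of its condition held. Transfer RNA was then 0% to 0.747% of the reads in the anti-IGF2BP3 libraries, with the same exact permutation p of 0.000977. The clusters kept were long, with a median length of 124 to 601 bases, against 39 to 45 bases in IgG, so this matching does not make the lists alike.

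**Figure D1:**
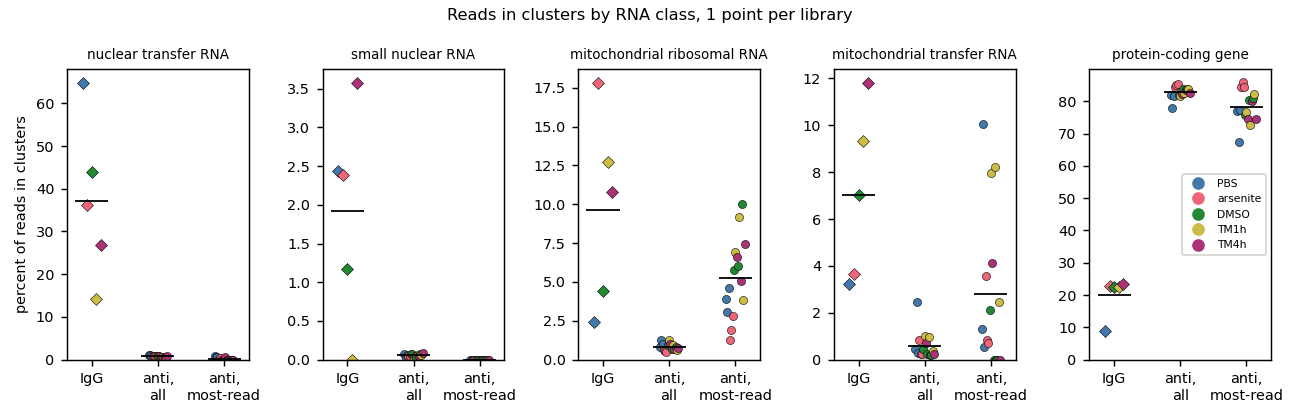
Percent of cluster reads by RNA class, with 1 point per library coloured by condition and a line at the group mean, for IgG (diamonds), for all clusters of the anti-IGF2BP3 libraries and for their most-read clusters. Nuclear transfer RNA sits at 14.1% to 64.7% in IgG and at 0.424% to 1.17% in all anti-IGF2BP3 clusters, and protein-coding genes at 8.84% to 23.4% and 78.0% to 85.3%.

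Across anticodons, 34 of the 47 transfer RNA families with any cluster had IgG reads. The largest was TRX-CAT, whose anticodon reads methionine codons, with 387 IgG reads in 5 of 5 IgG libraries. Its pooled rate was 7406 per 1000000 in IgG and 480.3 in anti-IGF2BP3, a ratio of 15.4. TRK-TTT, a lysine family, followed with 334 reads and a ratio of 26.8, and TRG-CCC, a glycine family, with 217 reads and a ratio of 14.3. These 3 families made up 35.7% of the IgG transfer RNA reads. The ratio differed between families, from 2.54 for the arginine family TRR-ACG to 27.7 for the serine family TRS-AGA among the 25 families with at least 20 IgG reads. A family with only a few IgG reads had to lie high to have a cluster called, so that the ratio exceeded 1 in all 34 families with IgG reads is no separate result. The other 13 families, such as the histidine family TRH-GTG with 249 anti-IGF2BP3 reads, had 0 IgG reads.

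**Figure D2:**
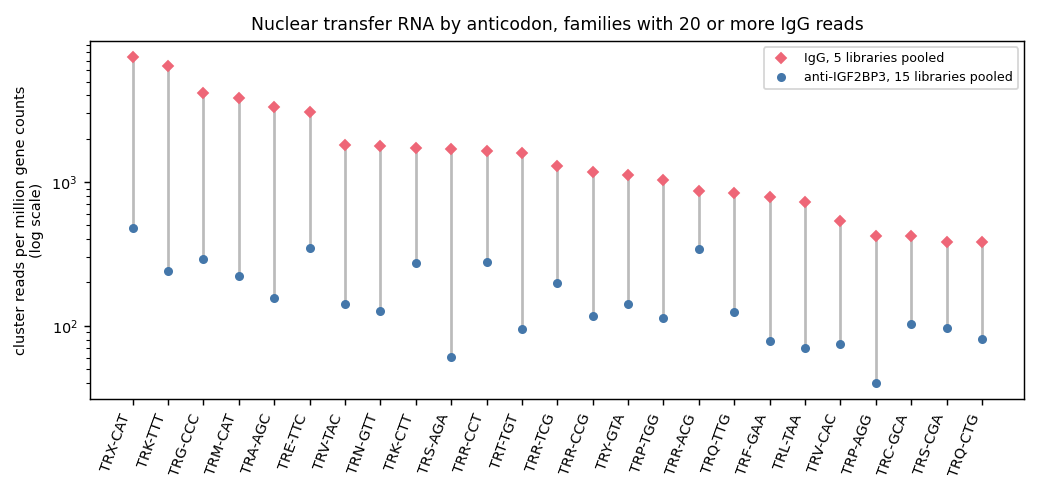
Cluster reads per 1000000 gene counts, pooled over libraries, for the 25 transfer RNA families with at least 20 IgG reads, on a log axis. IgG (diamonds) lies above anti-IGF2BP3 (circles) in each, by 2.54 times for TRR-ACG and 27.7 times for TRS-AGA.

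Reads per gene were tested with edgeR's quasi-likelihood test, with condition as covariate and gene count totals as scaling. Of 4191 RefSeq genes tested, 48 were richer in IgG at a Benjamini-Hochberg adjusted p under 0.05, or 1.15% of those tested. By class these were 30 of 85 nuclear transfer RNA genes, 5 of 8 small nuclear RNA genes, 5 of 18 mitochondrial transfer RNA genes, 2 of 8 other small RNA genes, 1 of 2 mitochondrial ribosomal RNA genes, 1 of 48 long noncoding RNA genes and 4 of 3516 protein-coding genes. None of the 487 pseudogenes or the 12 mitochondrial messenger RNA genes tested was called. In the 30 called transfer RNA genes the fitted excess in IgG was 4.24-fold to 39.6-fold, with a median of 12.9-fold. These sizes depend on the scaling. The log2 difference of TRX-CAT1-1, the gene with the lowest p, was -3.65 with gene count totals, -1.55 with TMM factors, -1.42 with DESeq2's own size factors and -6.20 with cluster read totals. A gene could enter this test through its IgG reads, so these counts describe the genes tested and not all 244 transfer RNA genes with clusters, of which 69 had IgG clusters. Copies with near-identical sequence share reads, so single genes of a family are uncertain.

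TRX-CAT1-1 (RefSeq gene at chr1:153671250-153671321) had the lowest p. Its IgG libraries held 79, 85, 26, 17 and 45 reads for PBS, arsenite, DMSO, TM 1 h and TM 4 h, the order used from here on, which is 4514, 9075, 3306, 2842 and 3899 reads per 1000000 gene counts. The anti-IGF2BP3 libraries held 225 to 619 with a median of 383 per 1000000. All 5 IgG libraries were above all 15 others, and the log2 difference of anti-IGF2BP3 over IgG was -3.65 (SE 0.28, edgeR adjusted p 1e-08). TRK-TTT3-2 had 101, 50, 20, 0 and 37 IgG reads, or 5770.4, 5338, 2543, 0 and 3206 per 1000000, against 27.1 to 153 with a median of 96.6. Here 4 of 5 IgG libraries were above all others and TM 1 h had no cluster, with a log2 difference of -5.06 (SE 0.40, edgeR adjusted p 1.2e-08). TRG-CCC2-2 had 65, 48, 10, 0 and 15 IgG reads and a log2 difference of -3.78 (SE 0.34, edgeR adjusted p 5.9e-08).

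The next genes were of the same kind. TRV-TAC1-1, a valine transfer RNA gene, had 26, 11, 10, 0 and 9 IgG reads, and TRR-CCT2-1, an arginine gene, had 25, 18, 5, 0 and 21. TRX-CAT1-5, TRS-AGA2-6, TRG-CCC2-1, TRN-GTT2-5, TRL-TAA1-1, TRR-TCG5-1 and TRP-TGG2-1 completed the transfer RNA genes among the 14 with the lowest p that had reads in at least 3 IgG libraries. Their log2 differences lay between -5.31 for TRS-AGA2-6 and -3.17 for TRR-TCG5-1. With only the 3 IgG and 3 anti-IGF2BP3 libraries of the tunicamycin set that holds both antibodies, none of the 48 calls was made. The log2 differences in that set were -3.66 for TRX-CAT1-1, -3.53 for TRK-TTT3-2 and -3.54 for TRN-GTT2-5, so the first was as large as in all libraries and the other two were smaller.

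The remaining 2 of the 14 were TRNS1, a mitochondrial transfer RNA gene, with a log2 difference of -3.31 (SE 0.51, edgeR adjusted p 4.1e-05), and a site inside the long noncoding RNA gene EPCAM-DT, with 12, 15, 8, 0 and 0 IgG reads and -3.94 (SE 0.57, edgeR adjusted p 1.7e-05). Over 37 aligned bases the letters of the EPCAM-DT site differ from a cluster of the valine transfer RNA gene TRV-AAC3-1 at 1 base. A site on chromosome 6 in no RefSeq gene had 196 IgG reads (51, 78, 0, 18 and 49) and 2407 anti-IGF2BP3 reads, a pooled ratio of 16.0. It differs from a cluster of TRX-CAT1-1 at 2 of 42 bases. Both sites are shown for comparison with the transfer RNA clusters, at chr2:47280758-47280794 (minus) and chr6:56322844-56322885 (plus).
EPCAM-DT site: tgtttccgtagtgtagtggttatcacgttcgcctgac
chromosome 6 site: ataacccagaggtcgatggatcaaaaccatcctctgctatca
The files do not say how reads that match several such places were assigned.

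**Figure D3:**
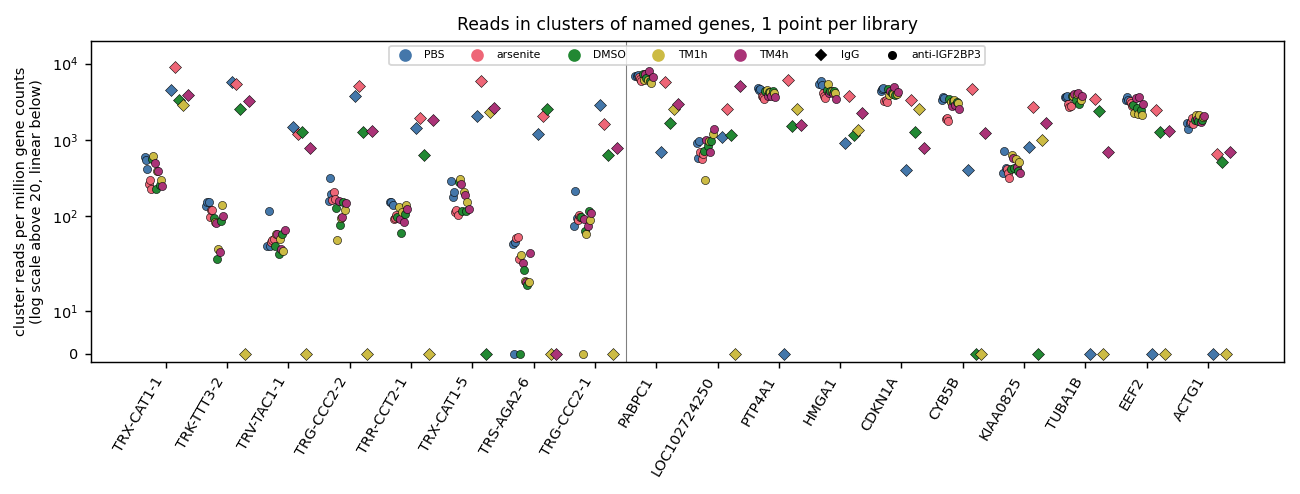
Cluster reads per 1000000 gene counts in every library, on an axis that is logarithmic above 20, for the 8 genes richest in IgG by p (left of the line) and the 10 protein-coding genes with reads in at least 3 IgG libraries (right). For TRX-CAT1-1 all 5 IgG libraries (diamonds) lie above all 15 anti-IGF2BP3 libraries (circles), and for PABPC1, HMGA1 and CDKN1A 4 of 5 lie below, with the arsenite library inside the range, which it is not once the PBS and arsenite lists are exchanged.

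Within transfer RNA genes the IgG clusters lay towards the 3' end. The middle of the cluster lay past the midpoint of the gene for 85.0%, 83.7%, 88.2%, 100% and 95.0% of the clusters in the IgG libraries and for 73.1% to 84.7% in the anti-IGF2BP3 libraries (exact permutation p 0.000977, adjusted p 0.00317). These were 125 IgG clusters in 69 genes and 1791 anti-IGF2BP3 clusters in 244 genes, and the genes were not matched. The arsenite IgG library lay within the anti-IGF2BP3 range. Each IgG library had the same weight, although TM 1 h held only 33 clusters of all classes, 15.2% of them nuclear transfer RNA. The share that ran more than 5 bases past the 3' end was not distinguishable, with 11.8% to 40.0% against 3.23% to 50.8% (exact permutation p 0.692, adjusted p 0.726).

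Small nuclear RNAs, the RNA parts of the spliceosome and of related particles, made up 2.41% of IgG cluster reads and 0.0619% of anti-IGF2BP3 cluster reads. The IgG rates were 2285, 7047, 636, 0 and 3726 per 1000000 gene counts, and those of anti-IGF2BP3 were 76.6 to 717. IgG lay above all anti-IGF2BP3 libraries in 3 of 5 libraries, and TM 1 h had no cluster (exact permutation p 0.0107, adjusted p 0.0229). RNU5A-1, a gene for U5 RNA of the spliceosome, had 12, 14, 0, 0 and 9 IgG reads and a log2 difference of -4.11 (SE 0.82, edgeR adjusted p 0.00054). Its copy RNU5B-1 had 12, 13, 0, 0 and 5 and -4.33 (SE 0.87, edgeR adjusted p 0.00059). RNU12 of the minor spliceosome, RNU4-2 and RN7SK, an RNA that holds back a transcription elongation factor, were also called.

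Other small RNAs gave a less even picture. RN7SL1, the RNA of the signal recognition particle, had 16, 5, 0, 0 and 6 IgG reads and was called with a log2 difference of -3.17 (SE 0.61, edgeR adjusted p 0.00037), and the Y RNA gene RNY5 was called at -3.91 (SE 1.09, edgeR adjusted p 0.0085). RN7SL2, RNY1, RMRP and VTRNA1-2 had IgG reads and were not called. As a class they had an exact permutation p of 0.0518 by rate (adjusted p 0.0798), and of 0.0156 (adjusted p 0.0288) for each of the other 4 measures, which are shares of reads or clusters. Small nucleolar RNAs had IgG reads in 2 of 5 libraries, and none of the 5 genes tested was called.

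The mitochondrial ribosomal RNAs RNR1 and RNR2 held 11.4% of the IgG cluster reads and 0.743% of the others. By rate the IgG libraries had 2285, 52530.4, 2416, 7524 and 11263 per 1000000 against 3350 to 7092, so 2 lay below and 3 above all of the anti-IGF2BP3 libraries (exact permutation p 0.0947, adjusted p 0.125). The arsenite library carried most of this, and without it the mean difference fell from 10060 to 309 per 1000000. By share of cluster reads the same class passed, with an exact permutation p of 0.000977 (adjusted p 0.00317), and in the most-read clusters it did not (0.0391, adjusted p 0.0622). The class is therefore not settled as richer in IgG. Mitochondrial transfer RNAs had 3028, 10784, 3815, 5517 and 12303 per 1000000 in IgG against 1421 to 8024 (exact permutation p 0.0176, adjusted p 0.0312), and the p rose to 0.0703 without the arsenite and to 0.0820 without the TM 4 h library. The 13 mitochondrial messenger RNAs had 92 IgG reads. They were 1.44% of pooled IgG and 1.20% of pooled anti-IGF2BP3 cluster reads (exact permutation p 0.210 for the share per library, adjusted p 0.256). By number of clusters their mean share was 2.63% in IgG and 0.392% in anti-IGF2BP3 (exact permutation p 0.0156, adjusted p 0.0288), but in the most-read clusters, which match the lists in number, it was 2.63% and 4.57% (exact permutation p 0.182, adjusted p 0.225). No direction is read for them.

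The strands of the mitochondrial chromosome were compared with the other antibody one at a time. The minus strand of the reference sequence had 238 IgG reads, 4555 per 1000000 pooled, against 1283 (exact permutation p 0.00195, adjusted p 0.00556). The plus strand had 993 reads, 19003 per 1000000 against 15551 (exact permutation p 0.416, adjusted p 0.483). On the minus strand the IgG values of 1885 (PBS) and 1144 (DMSO) lay within the anti-IGF2BP3 range of 799 to 2024. The difference between the strands was not tested. Of the 4 protein-coding genes called richer in IgG, KIAA0825 had 14, 25, 0, 6 and 19 IgG reads and 4338 anti-IGF2BP3 reads. The mitochondrial gene TRNE had nearly the same, with 14, 25, 0, 6 and 20 IgG reads and 4349 anti-IGF2BP3 reads. Whether KIAA0825 and TRNE are separate calls was not tested. LOC102724250 had 19, 24, 9, 0 and 59 IgG reads. The sites of KIAA0825 and LOC102724250 lie in nuclear gene intervals, and the other protein-coding genes called are not named.

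Messenger RNAs were present in IgG as well. Protein-coding genes held 8.84%, 22.7%, 22.5%, 22.6% and 23.4% of the IgG cluster reads, against 78.0% to 85.3%, and in the most-read clusters of the anti-IGF2BP3 libraries 67.4% to 86.0%. This share falls as that of transfer RNA rises, so no test is given for it. Of the 20 protein-coding genes with most anti-IGF2BP3 cluster reads, 13 had an IgG cluster. Those in at least 3 IgG libraries included known IGF2BP targets and abundant messenger RNAs. Sites of 30 bases around the crosslink mode of the most-read IgG cluster are given for 4 of them, because they show sequence recovered by both antibodies: a cluster of each of the 15 anti-IGF2BP3 libraries covered all 30 bases of each site. Capitals mark CAT.
PTP4A1: gaggttCATttcacttatCATtacttacaa
HMGA1: gaCATccgtCATtgctgctgctaccagcgc
CDKN1A: tgtgtctttcacagctcctcccacaatgct
TUBA1B: atcCATtccttttggccctgcagCATgtca
They lie at chr6:63576720-63576749, chr6:34245891-34245920 and chr6:36687260-36687289 on the plus strand and chr12:49127926-49127955 on the minus strand.

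PABPC1, which binds the poly(A) tail, had 12, 54, 13, 15 and 34 IgG reads, or 686, 5766, 1653, 2508 and 2946 per 1000000, against 5611 to 7916 with a median of 6671. HMGA1, a chromatin protein and reported IGF2BP target, had 16, 35, 9, 8 and 26 IgG reads, or 914, 3737, 1144, 1338 and 2253 per 1000000, against 3395 to 5871 with a median of 4331. CDKN1A, an inhibitor of cyclin-dependent kinases, had 7, 31, 10, 15 and 9 IgG reads, or 399.9, 3309.8, 1272, 2508 and 779.8 per 1000000, against 3136 to 4955 with a median of 4106. For each of these 3 genes 4 of 5 IgG values were below all anti-IGF2BP3 values, and that of the arsenite library lay within their range. With the PBS and arsenite cluster lists exchanged, both of those libraries also lay below, PABPC1 being at 3085 and 1281 per 1000000. No direction is read from this, since the IgG values are lower bounds. PTP4A1, a phosphatase, CYB5B, a mitochondrial outer membrane cytochrome, TUBA1B, EEF2 and ACTG1 had 102, 65, 59, 48 and 18 IgG reads.

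The other 7 of the 20 had no IgG cluster. They were DCBLD2, the growth factor genes KITLG and EREG, FAT1, the transcription factor gene NFAT5, MDM2, which regulates p53, and PDP1. DCBLD2 had 44210 anti-IGF2BP3 reads and KITLG 42073, beside 42555 for HMGA1. The densest cluster of an anti-IGF2BP3 library had a median of 0.932 to 5.77 reads per base over the 13 genes with an IgG cluster. It was 0.712 to 1.40 over the 7 without. The ranges overlapped, but the median gene was at 2.64 with an IgG cluster and at 0.902 without. The part of this density in the missing IgG clusters was not tested.

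Lists of genes were described by their clusters. Of 24 reported IGF2BP target mRNAs with anti-IGF2BP3 clusters, out of 30 listed, 5 had IgG clusters (HMGA1, CCND1, LDHA, EEF2 and PABPC1), where 56 of all 8210 protein-coding genes with clusters had one (0.682%). The target genes were not matched to the others for reads. They held 4.63% of IgG and 3.47% of anti-IGF2BP3 cluster reads. None of the 21 tested was called richer in IgG, where 1.15% of all tested genes were. Of 73 ribosomal protein genes with clusters none had an IgG cluster, nor had any of 19 histone genes, 18 regulators of the integrated stress and unfolded protein responses or 25 mitosis genes. At the share of 0.682% over all protein-coding genes, nothing is read from these counts of 0. IGF2BP3's own mRNA had clusters in 12 anti-IGF2BP3 libraries and 0 IgG reads. MYC, ACTB, HMGA2, CD44, EEF1A1 and MALAT1 also had 0 IgG reads in clusters, which says only that no cluster was called there at this depth.

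Sequence features were compared over all clusters and within protein-coding clusters. GC content was 44.5% to 50.1% in IgG and 41.8% to 44.3% in anti-IGF2BP3 (exact permutation p 0.000977, adjusted p 0.00317), and within protein-coding clusters 42.7% to 47.5% against 41.8% to 44.3% (exact permutation p 0.00391, adjusted p 0.00918), though not in the most-read protein-coding clusters (0.125, adjusted p 0.157). The B box letters given above, searched on the strand of the cluster, were in 6.06% to 30.2% of IgG clusters and 0.484% to 1.03% of the others (exact permutation p 0.000977, adjusted p 0.00317). Nuclear transfer RNA made up 15.2% to 43.0% of IgG clusters and 0.314% to 0.866% of the others, so the B box excess is no separate result. GC and CAT over all clusters include the same transfer RNA clusters. For the reverse complement of the B box letters no difference was detected (0 to 1.08% against 0.0559% to 0.214%, exact permutation p 0.569, adjusted p 0.622). CAT occurred 1.47 to 2.26 times per 100 bases in IgG and 2.26 to 2.63 times in anti-IGF2BP3 (exact permutation p 0.000977, adjusted p 0.00317). The control triplet ATG was also lower in IgG, with the same p. Within protein-coding clusters no difference in CAT was detected (1.48 to 3.19 against 2.26 to 2.66, exact permutation p 0.473, adjusted p 0.542). Against the most-read protein-coding clusters the CAT means were 2.57 in IgG and 2.13 in anti-IGF2BP3 (exact permutation p 0.031, adjusted p 0.0515). Those of ATG were 1.40 and 1.72 (exact permutation p 0.0117, adjusted p 0.0245).

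The share of T-to-C conversion events among all events at clusters was 6.36% to 8.94% in IgG and 7.58% to 8.81% in anti-IGF2BP3 (exact permutation p 0.119, adjusted p 0.151). Within transfer RNA clusters it was 7.18% to 15.2% and 5.68% to 10.99% (exact permutation p 0.0264, adjusted p 0.0443). No listed cluster had fewer than 2 conversion positions, so these shares describe listed clusters only. The median number of conversion positions per cluster was 2 to 3 in IgG and 3 to 4 in anti-IGF2BP3 (exact permutation p 0.000977, adjusted p 0.00317). Whether all conversions came from crosslinking was not tested.

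In the gene count table, edgeR's quasi-likelihood test with library totals as scaling and condition as covariate called 79 of 7022 genes richer in IgG, which is 1.13% of those tested, and 8 richer in anti-IGF2BP3, or 0.114%, at a Benjamini-Hochberg adjusted p under 0.05. At an unadjusted p under 0.05 there were 737. Over all genes tested the log2 difference had a median of 0.13. Of the 79 genes, 59 were at least 4-fold and 14 at least 16-fold richer in IgG, and together they held 5.21% of IgG and 1.18% of anti-IGF2BP3 counts. In 32 of them all IgG libraries were above all anti-IGF2BP3 libraries in counts scaled to 1000000 per library (CPM), which held for 0.755% of all genes tested. The 79 genes had a median of 14 counts over the 5 IgG libraries together.

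The lowest p was that of ENSG00000269028_3, with 88, 80, 27, 21 and 50 IgG counts, or 5028, 8542, 3433, 3511 and 4332 CPM. The anti-IGF2BP3 libraries had 215 to 428 CPM with a median of 323. The log2 difference was -4.03 (SE 0.14, edgeR adjusted p 8.1e-180). ENSG00000255823_5 had 71, 71, 24, 14 and 30 IgG counts, or 4056, 7581, 3052, 2341 and 2599 CPM, against 135 to 311 CPM, and a log2 difference of -4.12 (SE 0.16, edgeR adjusted p 8.3e-147). With robust variance moderation the edgeR adjusted p was 4.1e-07 for ENSG00000269028_3 and 1.6e-06 for ENSG00000255823_5, at unchanged log2 differences. The size of these p-values therefore depends on the variance moderation. In both genes all 5 IgG libraries were above all 15 others.

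Fewer genes were called richer in anti-IGF2BP3. ENSG00000112308_13 had 8, 2, 1, 3 and 3 IgG counts, or 457, 214, 127, 502 and 260 CPM, against 614 to 939 CPM, a log2 difference of 1.28 (SE 0.31, edgeR adjusted p 0.0046). ENSG00000060749_16 had 514, 854, 636, 1003 and 520 CPM in IgG and 1026 to 1519 in anti-IGF2BP3, a log2 difference of 0.90 (SE 0.23, edgeR adjusted p 0.0089). In 5 of the 8 genes all IgG libraries were below all others in CPM, which held for 9.33% of all genes tested. Of the 8 genes, 1 had 0 IgG counts, where 7.73 were expected from its share, which is at least 2.58-fold higher with a floor of 3 counts over the group. The count depended on the scaling. TMM factors gave 514 genes richer in anti-IGF2BP3 and moved that median to 0.71, and upper-quartile factors gave 60 with a median of 0.39. The number richer in IgG was 60 and 63 in these fits, all of them among the 79.

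**Figure D4:**
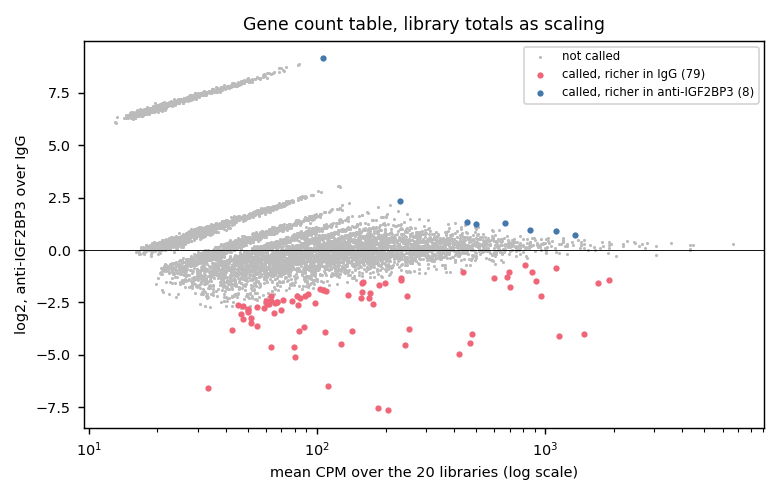
Log2 difference of anti-IGF2BP3 over IgG against the mean CPM over the 20 libraries (log axis), 1 point per gene of the count table. The 79 genes called richer in IgG extend below -4, and 7 of the 8 called richer in anti-IGF2BP3 lie between 0.74 and 2.35. The other one had 0 IgG counts, so its height in the plot is no measured size.

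The difference between antibodies was itself compared between the arsenite experiment and the tunicamycin experiment. In edgeR's test 10 of 7022 genes, 0.142%, had a difference that depended on the experiment, and 5 of the 10 were among the 79 genes richer in IgG. ENSG00000269028_3 was further towards IgG in the arsenite experiment by a log2 difference of -0.99 (edgeR adjusted p 0.0039) and ENSG00000255823_5 by -1.43 (edgeR adjusted p 1.9e-05). Without the arsenite IgG library no gene was called, so this rests on 1 library. Set and treatment cannot be told apart in this comparison.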

How the data were processed

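PAR-CLIP libraries of HCT116 cells were compared, 15 anti-IGF2BP3 and 5 IgG. The authors deposited whole-number counts per gene in 1 table and, per library, a cluster list with counts of reads and conversion events, per the file headers. The submitters' processing notes name bcl2fastq 2.20.0.422, UMI-tools 1.1.1, Trimmomatic 0.30, Bowtie 0.12.7 and featureCounts 2.0.1, and GRCh38.p13. The cluster caller is not given in the sources used here. More than 1 RNase concentration is stated without saying which library received which.

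Genes were tested with edgeR 4.0.16 (quasi-likelihood, filterByExpr, R 4.3.3), with library totals as scaling, condition as covariate and Benjamini-Hochberg adjustment. DESeq2 1.42.0 was an alternative. The fit was tested on simulated data. The table's identifiers could not be matched to symbols (0 through the RefSeq table), so the planned naming by symbol and the gene lists were not run on it, and at most 2 identifiers per direction are printed.

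Clusters were named by position with RefSeq GRCh38.p14, since all 1029 clusters inside its promoter windows had identical sequence. Small RNA and mitochondrial genes came first (at least 50% overlap), then pseudogenes, protein-coding genes and long noncoding RNAs. This was the last of 4 naming orders tried. Classes and features were compared by an exact permutation of the antibody within conditions, and adjusted over all 94 comparisons made, 60 of classes (12 classes by 5 measures), 28 of features, 3 of positions and 3 of strands, while 2 more could not be computed. All cluster measures, tests and the rule for named genes (the 14 lowest p with reads in at least 3 IgG libraries) were chosen after the data were seen. The members and lists were chosen with earlier results of these data known. Intervals of depth cover counting error only.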

Additional observations from a re-analysis of the deposited data

Results flagged for a closer look

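Among 55 measures checked over the 5 IgG libraries, 5 had 1 library far from the others, where chance gives about 1 in 20. The PBS library had 8.84% of cluster reads in protein-coding genes, and the next lowest had 22.5%. The TM 1 h library had 0% in long noncoding RNA, and the next lowest had 1.87%. The PBS library had 1.08% of clusters with the reverse complement of the B box letters, and the others had 0. The arsenite library had 9075 TRX-CAT1-1 reads per 1000000 gene counts, and the next had 4514. The arsenite library had 4698 CYB5B reads per 1000000, and the next had 1213. The PBS and arsenite IgG cluster lists carry each other's names, so the PBS and arsenite labels here depend on the attachment followed. The TRX-CAT1-1 and CYB5B rates also divide reads by the gene counts of the attached sample. The PBS library held 93 clusters at 17503 gene counts, and the arsenite library 180 clusters at 9366. Whether the TRX-CAT1-1 and CYB5B flags remain with the lists exchanged was not tested.

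The antibody difference of 2 genes of the count table differed between the arsenite and tunicamycin experiments. The change was -0.99 on the log2 scale for ENSG00000269028_3 (edgeR adjusted p 0.0039) and -1.43 for ENSG00000255823_5 (edgeR adjusted p 1.9e-05). Without the arsenite IgG library no gene was called, and set and treatment cannot be told apart.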

How the results depend on the processing

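The number of genes of the count table richer in IgG was 79. It was 21 with DESeq2's own size factors and 162 with DESeq2 on library totals, 150 with no filter, 19 with an expected IgG count of at least 5 and also 19 with a mean count of at least 50, 21 in the tunicamycin set with both antibodies alone, and 46 in the arsenite set alone. Leaving out 1 library gave 60 (without the arsenite IgG library) to 83. The number richer in anti-IGF2BP3 was 8. It was 514 with TMM, 60 with upper-quartile factors, 595 with DESeq2's own size factors, 3 with DESeq2 on library totals, 4 with either filter on expected or mean counts, 5 with no condition covariate, 4 without the set that lacks IgG, 0 in the tunicamycin set with both antibodies (edgeR) and 5 in the arsenite set. Leaving out 1 library gave 3 (without the TM 4 h IgG library) to 8, with 4 without the PBS IgG library. The number depending on the experiment was 10, with 5 from DESeq2 on library totals, 16 with the PBS and arsenite IgG labels exchanged, and 0 (without the arsenite IgG library) to 14 with 1 library left out, and 3 without the TM 4 h IgG library.

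The number of RefSeq genes richer in IgG by cluster reads was 48. It was 19 with TMM, 17 with DESeq2's own size factors, 73 with no filter, 2 with an expected IgG count of at least 5, 19 with a mean count of at least 50, 0 in the tunicamycin set alone (edgeR) and 74 with cluster read totals, and 29 (without the arsenite IgG library) to 49 with 1 library left out. In the tunicamycin set alone TRNS1 was at 0.98, TRR-TCG5-1 at 0.048 and TRP-TGG2-1 at 0.24 on the log2 scale, the other direction. Of 591 values of the 18 named genes under alternatives, 20 lost the call, 3 reversed and the others kept direction and call. With 1 IgG library left out the difference in rate per 1000000 was 25327 to 49802 for nuclear transfer RNA, 1293 to 3049 for small nuclear RNA, 309 to 13429 for mitochondrial ribosomal RNA and 2476 to 5174 for mitochondrial transfer RNA. With the IgG lists exchanged mitochondrial ribosomal RNA was at 5573 (exact permutation p 0.043), and without clusters that have an identical copy mitochondrial transfer RNA was at 1734 (exact permutation p 0.0977). The causes were not tested.

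No paired analysis was possible because all IgG libraries carry replicate number 1, so the groups compared share fewer than 2 numbers. Not run were library totals without the mitochondrial, humanin-like and ribosomal RNA lists, since the table's genes could not be matched to them, and upper-quartile factors on cluster reads, whose quartiles are 0.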
